A study of Mus musculus with 8 samples.

Results

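The clustered protocadherins are 59 genes in 3 neighbouring clusters on mouse chromosome 18, and their read counts were compared between young-adult (6m) and aged (24m) mouse brain. The genes were chosen by symbol among the 22430 genes of the count table. They comprise 15 alpha genes (Pcdha1 to Pcdha12, Pcdha4b, Pcdhac1 and Pcdhac2), 22 beta genes (Pcdhb1 to Pcdhb22) and 22 gamma genes (the a and b types and Pcdhgc3 to Pcdhgc5). All 59 were in the table. The family was picked while age results of these data were known, so its age differences are given as a description. The samples were whole brain hemispheres of male C57Bl/6JRj mice, 4 of them 6 months and 4 of them 24 months old, with no treatment and 1 library per mouse. RNA was read on Oxford Nanopore (ONT) MinION flow cells, and each library was deposited as raw read counts per gene.

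Clustered protocadherins are cell-surface cadherins that bind the same isoform on a facing cell. A neuron makes only some of them, by a choice of promoters, and the resulting combination gives the cell surface an identity used in self-avoidance of dendrites, axon arborization and synapse formation. Each alpha and gamma gene has its own long variable first exon, which encodes the extracellular and transmembrane part, and is spliced to 3 constant exons at the far end of its cluster, which encode a cytoplasmic part that all isoforms of the cluster share. Beta genes lack such constant exons and encode the whole protein in their own exon. The C-type members (Pcdhac1, Pcdhac2, Pcdhgc3, Pcdhgc4 and Pcdhgc5) lie at the ends of the alpha and gamma clusters and are known for broader use across cells than the other isoforms. Pcdhgc4 is known for its part in neuron survival, Pcdhac2 for axon spacing of serotonergic neurons and Pcdhgc3 for dendrite branching in the cortex.

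In GRCm39 all members lie on the plus strand. The alpha genes without Pcdha4b span chr18:37063237-37320716, the beta genes chr18:37397991-37657532 and the gamma genes chr18:37794846-37975014. The alpha constant exons measure 59, 89 and 2716 bases, and the last lies at chr18:37317999-37320714. The gamma constant exons measure 59, 92 and 2059 bases, and the last lies at chr18:37972956-37975014. ONT direct RNA reads start at the 3′ end of the molecule. A read of an alpha or gamma isoform that ends as annotated therefore begins in the last constant exon, which all isoforms of its cluster share.

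The libraries held 573152 to 1255424 counts summed over genes, in which a read on shared exons can enter more than 1 time. A count of 0 in a library allowed up to 3 counts, which was 2.30 to 5.42 CPM (counts per 1e6 counts of a TMM-scaled library). Spearman ρ over the tested genes was 0.918 to 0.951 between libraries of the same age and 0.882 to 0.912 between ages. 24m replicate 1 stood apart on the second principal component, at 38.4 against -17.5 to 7.48 in the other 7 libraries. Neuron markers summed to 2229 to 2390 CPM at 6m and 2530 to 2666 CPM at 24m, with all 7 in the table. Single neuron markers moved both ways, with Snap25 called higher by edgeR (log2FC 0.77, SE 0.18) and Map2 called lower (-0.91, SE 0.23). In brain tissue in bulk, more RNA per cell and more cells of a type cannot be told apart.

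The rows of the gamma genes were nearly copies of each other. Pcdhga1 had 55, 33, 77 and 73 reads in the 6m libraries and 121, 221, 195 and 210 reads in the 24m libraries. Pcdhgc3, at the other end of the cluster, had 58, 33, 78 and 74 reads at 6m and 121, 223, 196 and 210 at 24m. Over the 22 gamma genes, the highest and the lowest count in a library never differed by more than 3 reads. Of the 176 gamma counts, 122 (69.3%) equalled the lowest gamma count of their library, and the 22 rows held 18 different series of counts. The alpha genes without Pcdha4b formed 2 sets in the same way. Pcdha1, Pcdha2, Pcdha4, Pcdha6 and Pcdha11 differed from each other by at most 1 read in any library, and so did the other 9. The table therefore credits a read on shared exons to every isoform that carries them, and the 36 rows hold at most about 3 measurements rather than 36. The 2 alpha sets, with 162 and 130 reads in all, differed by only 2 to 5 reads per library. They are not read as separate observations. The lowest count in a set is used here as its shared count. Summed over rows, the gamma cluster had 21739 counts for a shared count of 985 reads, so each shared read entered the sum about 22.1 times.

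**Figure D1:**
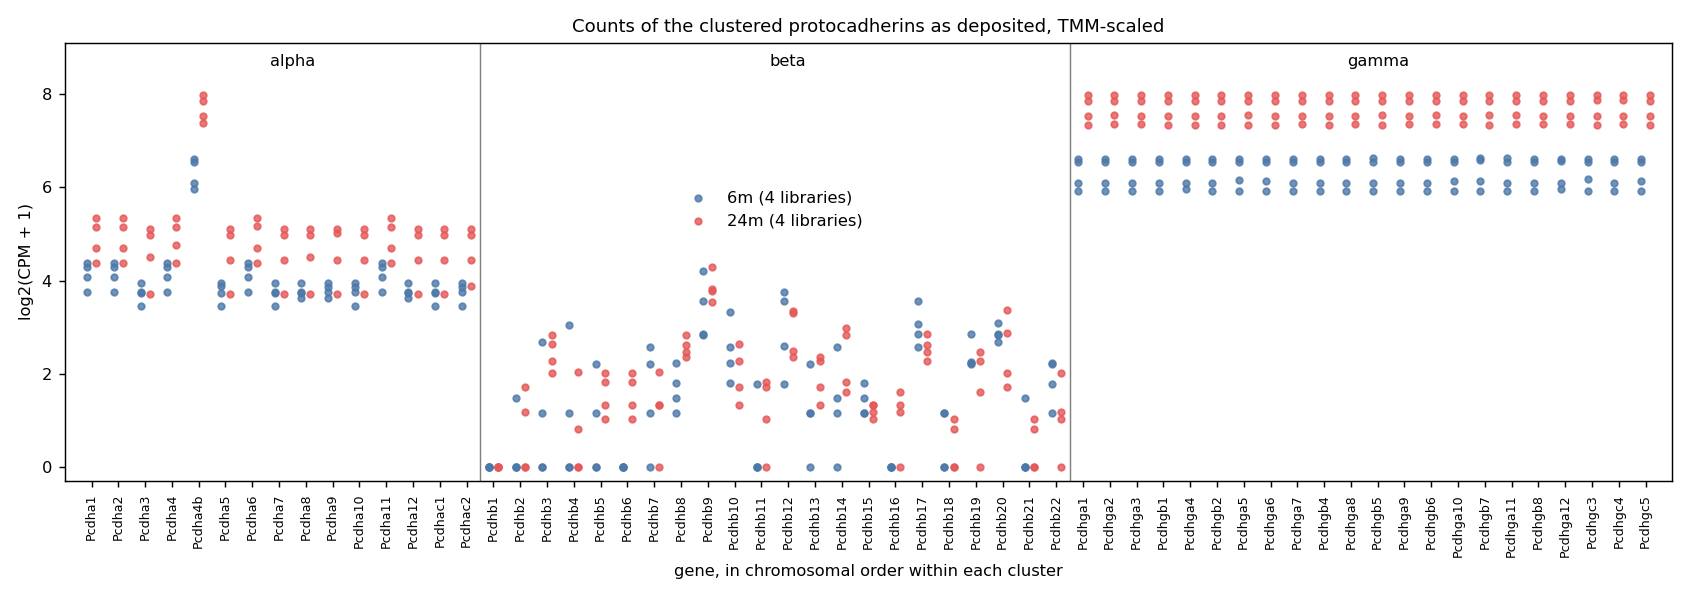
Level of each of the 59 clustered protocadherins as log2(CPM + 1) on the vertical axis, with genes in chromosomal order within each cluster and 1 point per library (blue 6m, red 24m). The gamma rows repeat 1 pattern in which all 24m points lie above all 6m points, the alpha rows repeat 2 lower patterns in which 24m replicate 1 falls among the 6m points, Pcdha4b follows gamma, and the beta genes each have a low level of their own.

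The gamma shared count was higher at 24m. It amounted to 67.7, 59.7, 95.8 and 91.7 CPM at 6m and 184.4, 229.8, 249.5 and 161.1 CPM at 24m. Every aged library lay above every young one. The means were 78.7 ± 17.7 CPM (SD, n = 4) at 6m and 206 ± 40.6 CPM at 24m, a log2FC of 1.37 (SE 0.16), or 2.58-fold, and 1.40 without 24m replicate 1. In the edgeR quasi-likelihood test over 9375 genes, all 22 gamma rows were called higher, at log2FC 1.33 to 1.37 and Benjamini-Hochberg padj 1.06e-06 to 1.33e-06. Since the rows share their reads, this is 1 observation written 22 times. The rows took places in the ranking of all p-values between 17 and 45.

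The alpha shared count was lower than that of gamma in every library and was higher in 3 of the 4 aged mice than in any young one. The 9-member set had 10, 8, 10 and 8 reads at 6m and 8, 20, 26 and 40 reads at 24m, which is 12.3, 14.5, 12.4 and 10.05 CPM against 12.2, 20.8, 33.3 and 30.7 CPM. 24m replicate 1 lay within the young range and the other 3 aged libraries lay above it, so the ages overlapped. The log2FC was 1.04 (SE 0.31), or 2.05-fold, and 1.22 without 24m replicate 1. The 5-member set had 13, 11, 15 and 10 reads at 6m and 13, 24, 31 and 45 reads at 24m, with a log2FC of 0.87 (SE 0.26). The 5 members of this set are annotated to end at base 37320714, against 37320716 or 37320710 for the other 9. Members that end at 37320716 carry the same constant bases and more. The additional reads of the 5-member set over the 9-member set numbered 3, 3, 5 and 2 at 6m and 5, 4, 5 and 5 at 24m. Where they came from was not tested. In CPM these additional reads overlapped between the ages (2.51 to 6.22 against 3.84 to 7.62).

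**Figure D2:**
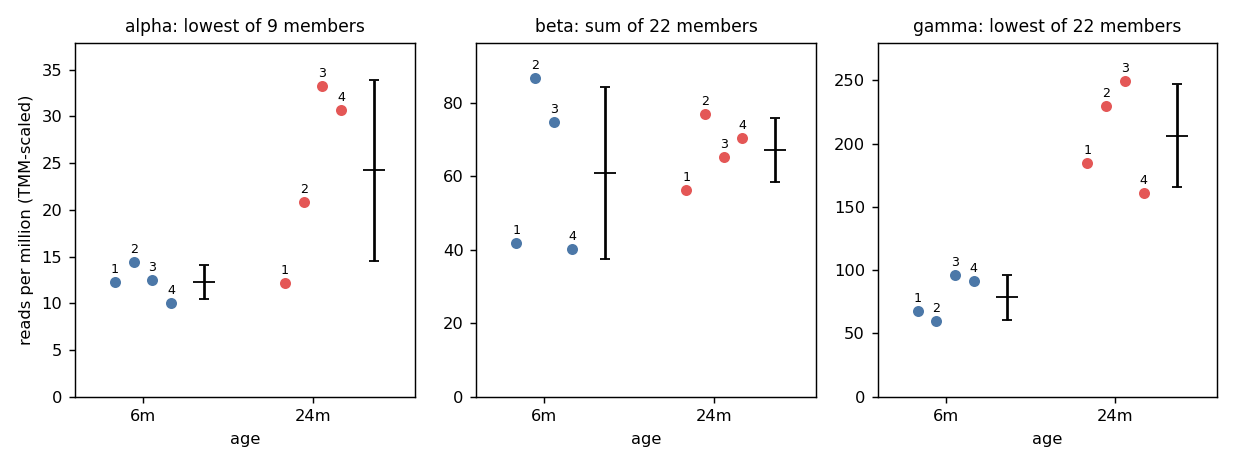
Level in CPM (TMM-scaled, linear axes from 0) of the shared alpha count, the summed beta counts and the shared gamma count in each library, by age. Points are libraries marked with their replicate number, and black marks are the mean ± SD of 4. Gamma separates the ages, alpha separates them except for 24m replicate 1, and the beta sums overlap.

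All 15 alpha rows were called higher by edgeR, at log2FC 0.86 to 1.37 and padj 1.06e-06 to 0.023, with no alpha row called lower. Over all genes tested, 10.3% were called higher and 4.17% lower. The largest log2FC and the smallest padj are those of Pcdha4b, which is described below. The other 14 rows share their reads, so they are not 14 separate observations. For these 14, padj ran from 0.016 to 0.023, and the call was lost under several alternatives. Their log2FC ran from 0.73 to 1.23 when each library was left out in turn. Pcdha3, which had the largest log2FC of the 14 (1.05, SE 0.31, padj 0.016), and Pcdhac1 (1.03, SE 0.31, padj 0.018) each lost the call under 6 of 19 alternatives. Pcdha9 and Pcdha12 each lost it under 8. All 14 lost the call in DESeq2, and again when 6m replicate 4, 24m replicate 3 or 24m replicate 4 was left out.

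Pcdha4b did not behave as an alpha row. It had 55, 34, 77 and 73 reads at 6m and 121, 222, 196 and 215 reads at 24m, within 5 reads of the gamma shared count in every library, and a log2FC of 1.37 (SE 0.16, edgeR padj 1.06e-06). In the GENCODE vM39 annotation its 2856 exon bases consist of 2410 bases of the variable exon of Pcdha4 and 446 bases of the gamma constant exons, with 0 bases in the alpha constant exons. It made up 993 of the 2986 counts summed over the alpha rows. Its level is therefore read with gamma and not with alpha.

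Across the family, 37 of the 39 members that passed the filter (a mean count over 5) were called higher and 0 lower, where over all genes tested 14.5% were called, 10.3% higher and 4.17% lower. At an unadjusted p below 0.05 none of the 39 was lower either, and DESeq2 and limma-voom called none lower. DESeq2 called 23 members higher, on raw or on quantile-normalized counts, and limma-voom called 28. The median log2FC of the 39 was 1.35 against -0.0034 over all genes tested. In 23 members, namely the gamma genes and Pcdha4b, the ages did not overlap in CPM, against 21.1% of all genes tested. These counts follow from the shared reads and from the choice of the family, and nothing is read from them. The other 20 members, all beta, did not pass the filter.

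Which isoforms were in use could hardly be read from the table. Reads that touched a variable exon and no shared exon appear as a surplus of a member over the shared count. Over all 22 gamma genes and 8 libraries the surplus came to 69 credits, 32 at 6m and 37 at 24m. Pcdhgb7 and Pcdhgc3 had the largest, 8 reads each. For Pcdhgb7 this was 6 reads at 6m and 2 at 24m, and for Pcdhgc3 it was 5 and 3. The annotation places other transcripts on the opposite strand over 771 exon bases of Pcdhgb7 and 1560 of Pcdhgc3, and the strand setting of the counting is not given in the sources used here. The summed gamma surplus was 3.62 to 13.7 CPM at 6m and 8.44 to 12.2 at 24m, so the ages overlapped while the shared count did not. The 9-member alpha set had a surplus of 11 credits, of which Pcdha9 had 3, Pcdha8 2 and Pcdhac2 2. Pcdhac1 and Pcdha7 had none. Of the other C-type genes, Pcdhgc4 had 4 and Pcdhgc5 had 2. Since a read on shared exons was credited to every isoform, these counts could not show a change of isoform use within alpha or gamma. The few surplus reads did not allow it either.

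The table held a measure of how far gamma reads reached. The predicted genes Gm38666 and Gm37388, which are no members, carry in vM39 the first gamma constant exon (59 bases) and 32 bases of the second, and none of the last. Their other exon bases, 222 and 338, lie outside the gamma constant exons. Their counts differed by at most 2 reads in any library, and the lower was taken as the number of gamma reads that reached the first constant exons. This measure was chosen after its values were seen. It rests on the vM39 models of these 2 genes, which may differ in the annotation release that the authors counted on. It was 30, 14, 48 and 44 reads at 6m and 74, 158, 155 and 141 reads at 24m, with a log2FC of 1.68 (SE 0.21). The gamma reads left over, which lay on the last exon or ended in the other bases of the second, numbered 25, 19, 29 and 29 at 6m and 47, 63, 40 and 69 at 24m, with a log2FC of 0.79 (SE 0.17). The ages did not overlap in CPM in either class.

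As a share of the gamma reads, those on the first constant exons made up 54.5%, 42.4%, 62.3% and 60.3% at 6m and 61.2%, 71.5%, 79.5% and 67.1% at 24m. The exact (Clopper-Pearson) 95% intervals were wide at 6m (25.5 to 60.8% in 6m replicate 2) and narrower at 24m (73.1 to 84.9% in 24m replicate 3), and cover counting error only. 3 of the 4 aged libraries exceeded every young one, and 24m replicate 1 lay among the young. The means were 54.9 ± 8.9% (SD, n = 4) and 69.8 ± 7.7%, a difference of 14.9 percentage points. A two-sided exact permutation test gave p = 0.057, where 4 against 4 libraries can reach 0.029, so the difference did not pass 0.05. Since the measure was chosen after its values were seen, this p is a description and nothing is concluded from it. It stayed between 10.8 and 17.8 points when each library was left out in turn. The share does not depend on library scaling, but it does depend on how far the reads of a library extend from the 3′ end, which the count table does not give and whose part was not tested.

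**Figure D3:**
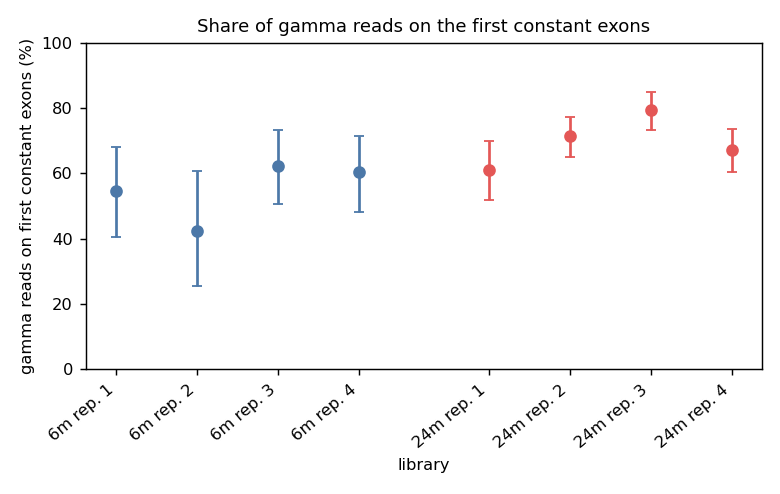
Percentage of gamma reads that also reached the first constant exons, per library, with exact 95% binomial intervals (blue 6m, red 24m). The young libraries lie between 42.4 and 62.3% and the aged ones between 61.2 and 79.5%, with 24m replicate 1 inside the young range.

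The beta genes differ in that their rows are not copies of each other. Only Pcdhb21 and Pcdhb22 share exon bases with each other. A search between the longest annotated transcripts of the beta genes found no partner at 95% identity or more over at least 50% of the transcript. The closest pair, Pcdhb11 and Pcdhb12, was 88.8% identical. Whether reads were misplaced between beta genes was not tested. All 22 together had 428 reads in the 8 libraries. The median beta gene had 13.5 reads over all libraries, and 1 gene, Pcdhb1, was at 0 in every library. Pcdhb9 was the most abundant, with 82 reads (19.2% of all beta reads), followed by Pcdhb12 with 45, Pcdhb17 with 39 and Pcdhb20 with 38. These 4 genes carried 47.7% of the beta reads.

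Per kb of exon, Pcdhb9 had 21.96 reads and the median beta gene 3.17, against 45.4 shared reads per kb of constant exon for alpha and 446 for gamma. The alpha and gamma values sum over all isoforms of the cluster, whereas each beta value is of 1 gene. The lengths also differ in kind, being the constant exons alone for alpha and gamma and all exons for beta. A direct RNA read starts at the 3′ end, so read counts need not grow with exon length. Without division by length, alpha had 130 shared reads, gamma 985 shared reads and beta 428 summed reads.

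Pcdhb9 had 5, 6, 14 and 5 reads at 6m and 7, 18, 10 and 17 reads at 24m. In CPM it was 10.2 ± 5.3 (SD, n = 4) at 6m and 13.8 ± 3.4 at 24m, and the ages overlapped. Its log2FC of 0.46 (SE 0.37) was not called (edgeR padj 0.41). Pcdhb12 had 2, 6, 10 and 4 reads at 6m and 6, 4, 7 and 6 reads at 24m, with a log2FC of -0.24 (SE 0.47, edgeR padj 0.76). Its row overlaps 1927 bases of annotated transcripts on the opposite strand. These 2 genes were the only beta genes that passed the filter, and neither was called by DESeq2 or limma-voom or had an unadjusted p below 0.05. Pcdhb17 had 6, 6, 4 and 5 reads at 6m and 3, 6, 4 and 5 at 24m, and Pcdhb20 had 5, 3, 6 and 5 at 6m and 2, 9, 5 and 3 at 24m. Both overlapped between the ages.

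Summed over the 22 genes, beta had 34, 48, 60 and 32 reads at 6m and 37, 74, 51 and 92 at 24m. Scaled, the young libraries ranged from 40.2 to 86.8 CPM and the aged ones from 56.4 to 76.9 CPM, inside the young range. The log2FC of the sum was 0.20 (SE 0.20), and it ran from 0.05 to 0.39 when each library was left out in turn. Mean CPM was higher at 24m in 10 beta genes and higher at 6m in 11. Pcdhb8 and Pcdhb6 were the 2 of the 22 beta genes whose ages did not overlap in CPM, and they are named because of their values. Over all genes tested, 21.1% did not overlap, so nothing is read from this count. Pcdhb8 had 3, 1, 2 and 1 reads at 6m and 3, 4, 4 and 8 at 24m. Pcdhb6 had 0 reads at 6m and 1, 1, 2 and 4 at 24m. Most of these counts lie at or under the limit of 3, and neither gene was tested.

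**Figure D4:**
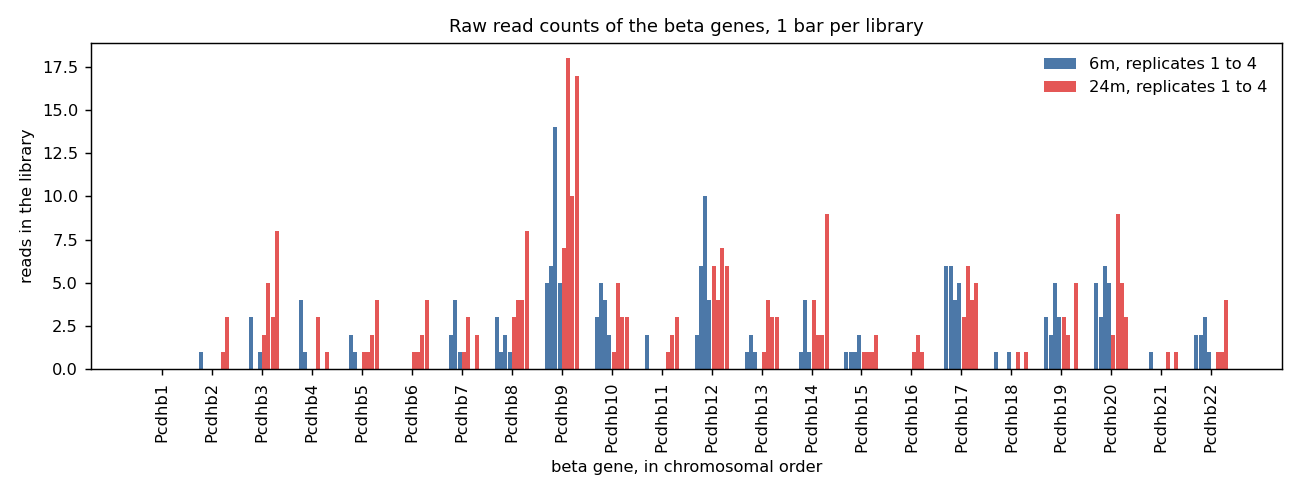
Raw reads of each beta gene, 1 bar per library in replicate order (blue 6m, red 24m), on a linear axis from 0. Pcdhb9 reaches 18 reads and Pcdhb1 has none, and blue and red bars overlap in most genes.

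Set against beta within each library, which needs no scaling, gamma had 1.62, 0.69, 1.28 and 2.28 shared reads per summed beta read at 6m and 3.27, 2.99, 3.82 and 2.28 at 24m. The ages did not overlap, with 6m replicate 4 (73 to 32 reads) and 24m replicate 4 (210 to 92 reads) almost equal. Gamma reads per alpha read ranged from 4.13 to 9.13 at 6m and from 5.25 to 15.1 at 24m, and overlapped. The highest ratio was in 24m replicate 1, where gamma was at the aged level and alpha at the young level. The sums of rows gave log2FC of 1.07 (SE 0.13) for alpha, 1.38 (SE 0.14) for gamma and 1.32 (SE 0.13) for the family, but they count shared reads many times and Pcdha4b is in the alpha sum. Without it, the alpha sum gave 0.93. Beta genes with at least 1 read numbered 12 to 17 in the young and 15 to 20 in the aged libraries. At an equal depth of 573152 counts the expected numbers were 10.6 to 17 and 14.0 to 16.9, which overlapped.

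The genes next to the clusters were compared in the same test. None of the 10 nearest tested genes, 5 on each side of the family, was called by edgeR, DESeq2 or limma-voom. Over all genes tested edgeR called 14.5%, so with 10 genes nothing is read from this count. Their log2FC ran from -0.64 to 0.94, and 2 of the 10 had an unadjusted edgeR p below 0.05, in opposite directions. Zmat2, the nearest upstream, had a log2FC of -0.09 (SE 0.13), and Diaph1, a formin just downstream of gamma, had 0.94 (SE 0.40, edgeR padj 0.094). The standard error of Diaph1 leaves a wide range for its difference.

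Related genes were taken from 5 lists, with 85 genes of which 59 were tested. edgeR called 8 higher (13.6%) and 2 lower (3.39%), near the 10.3% and 4.17% of all genes tested. Among non-clustered protocadherins, single genes outside the clusters, 1 of 5 tested was called, and the median log2FC was 0.14. This was Pcdh9 (log2FC 0.97, SE 0.33, padj 0.034), at 14.8, 9.04, 12.4 and 12.6 CPM at 6m and 9.15, 30.2, 34.6 and 22.2 CPM at 24m. As in alpha, 24m replicate 1 lay at the young level and the other 3 aged libraries lay above it. The edgeR call of Pcdh9 was lost under 9 of 19 alternatives. Pcdh10, the most abundant, stood at 41.8 and 43.9 CPM with a log2FC of 0.14 (SE 0.21, edgeR padj 0.67), and Pcdh1, Pcdh7 and Pcdh8 were not called.

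Of 15 other cadherins of brain, edgeR called 3 higher and 0 lower, against 10.3% higher and 4.17% lower over all genes tested, and the median log2FC was 0.17. Clstn1, a calsyntenin of the postsynaptic membrane that also links cargo to kinesin, had 304, 315, 269 and 339 CPM at 6m and 582, 672, 632 and 498 CPM at 24m. The ages did not overlap, and the log2FC was 0.96 (SE 0.10, edgeR padj 7.9e-07). Celsr2, a seven-pass cadherin of the planar polarity pathway, had a log2FC of 1.00 (SE 0.25, edgeR padj 0.0053), and Clstn2 had 0.88 (SE 0.29, edgeR padj 0.032), with a call lost under 8 of 19 alternatives. Cdh2 (N-cadherin), Clstn3 and the other 10 were not called, with Clstn3 at -0.01 (SE 0.11).

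Promoter choice in the clusters depends on the insulator protein CTCF and on cohesin, which bring distant enhancers to a promoter, and on silencing by SETDB1 and DNA methylation. In this list, 1 of 14 tested genes was called higher and 2 lower, where 10.3% and 4.17% of all genes tested were, and the median log2FC was -0.36. Smc1a, a core subunit of cohesin, had 84.9, 77.8, 82.1 and 100 CPM at 6m and 36.6, 35.3, 42.2 and 52.2 CPM at 24m, with a log2FC of -1.03 (SE 0.16, edgeR padj 8.3e-05). The ages did not overlap. Smc3, its partner, had a log2FC of -0.73 (SE 0.24, edgeR padj 0.032), and Rad21, the cohesin subunit that closes the ring, had 0.58 (SE 0.20, edgeR padj 0.036). Each of these 2 calls was lost under 10 of 19 alternatives, whereas Smc1a kept its call under all 19. Ctcf itself had a log2FC of 0.29 (SE 0.30, edgeR padj 0.53), and Setdb1 and Trim28 were not called.

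Among signalling partners, 3 of 19 tested genes were called higher and none lower, beside 10.3% and 4.17% of all genes tested, and the median log2FC was 0.10. Nlgn2, a postsynaptic adhesion protein of inhibitory synapses, had 18.5, 7.23, 17.4 and 23.9 CPM at 6m and 53.3, 58.2, 64.0 and 37.6 CPM at 24m, a log2FC of 1.57 (SE 0.25, edgeR padj 7.0e-05). Src, a tyrosine kinase, had 1.22 (SE 0.31, edgeR padj 0.0064), and Rac1, a small GTPase of the actin skeleton, had 0.82 (SE 0.16, edgeR padj 5.6e-04). The focal adhesion kinases that bind protocadherin cytoplasmic domains, Ptk2 (log2FC -0.25, SE 0.22) and Ptk2b (0.12, SE 0.10), were not called.

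**Figure D5:**
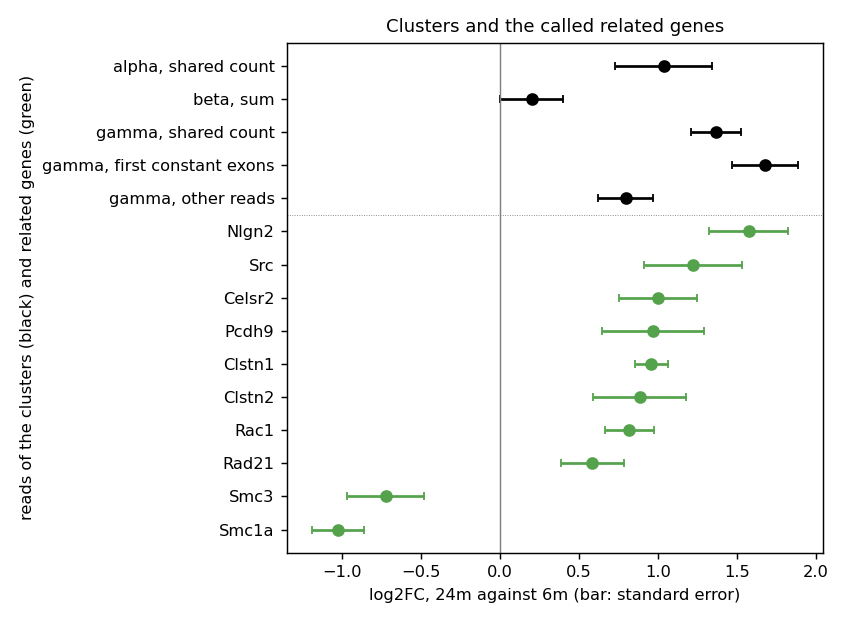
log2FC of 24m against 6m with its standard error, for reads of the alpha, beta and gamma clusters (black) and for the 10 related genes called by edgeR (green). Gamma lies at 1.37, alpha at 1.04 and beta at 0.20, and of the related genes Nlgn2 is highest at 1.57 and Smc1a lowest at -1.03.

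Marker sums of other cell types also moved with age. Astrocyte markers (6 genes) summed to 261 to 339 CPM at 6m and 435 to 557 CPM at 24m. Of the 5 that were tested, edgeR called Gfap, Slc1a3 and Gja1 higher (log2FC 1.94, 1.65 and 1.42) and Slc1a2 lower (-0.59). Oligodendrocyte markers (6 genes) summed to 1870 to 2437 and 2556 to 3448 CPM, and microglia markers (6 genes) to 395 to 440 and 492 to 692 CPM. Of the microglia markers, edgeR called Tmem119 higher and none lower. None of these 3 sums overlapped between the ages, as for gamma. Haemoglobin genes summed to 6073 to 10009 CPM at 6m and 3344 to 6265 CPM at 24m, with all 4 called lower by edgeR. The markers of serotonergic neurons (3.73 to 11.3 and 0 to 10.7 CPM), olfactory and granule neuron progenitors (18.5 to 32.6 and 19.2 to 33.5 CPM, with Dcx at 0), endothelium (21.7 to 47.3 and 27.0 to 35.1 CPM) and choroid plexus (2817 to 4218 and 2182 to 4336 CPM) overlapped. Their part in the gamma and alpha differences was not tested.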

How the data were processed

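Per the labels and the methods, the authors read RNA of 8 hemispheres on ONT MinION, aligned it to GRCm39 with minimap2 (version 2.24 in the submitters' processing notes) and deposited raw read counts per gene from featureCounts. The strand, overlap and multi-mapping settings are not given in the sources used here. The labels name another library kit than the methods, which were followed. The members and gene lists were chosen with earlier results of these data known.

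Of the 22430 genes, 22281 matched GENCODE vM39, which supplied symbols, exons and positions on GRCm39; the authors' annotation release differs. The age test was the quasi-likelihood test of edgeR 4.0.16 (R 4.3.3) with TMM scaling and no covariate, run on every gene whose counts averaged more than 5. A gene was called when its padj (Benjamini-Hochberg) was at or below 0.05 and its log2FC reached 0.58 in size. The shared count is the lowest count of a set of members per library. Cluster levels were fitted with 1 row per cluster in place of its members, and no p was computed for them. Shares were tested by exact permutation (scipy 1.17.1). Beta transcripts were compared with BLAST+ 2.17.0.

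Alternatives were DESeq2 1.42.0 on raw and quantile-normalized counts, limma-voom (limma 3.58.1) on quantile-normalized counts, other scalings and filters, a replicate block and leaving out each library. Cluster levels and shared counts were not refitted with DESeq2 or limma-voom. The shared counts and the constant-exon classes were added after seeing the data. The fits were tested on simulated counts with known changes. Large changes at high counts were recovered, smaller changes and low counts only in part, and the criterion for passing was narrowed 2 times after earlier runs had missed it. Members were named when they passed the filter or led their cluster, together with the C-type genes, and related genes when called. Of the 5 lists of related genes, 1 is not reported here beyond the totals.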

Additional observations from a re-analysis of the deposited data

Results flagged for a closer look

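The neuron marker sum of 6m replicate 3 was 2390 CPM, against 2229 to 2255 CPM in the other 3 young libraries, and its gap to them was large for a group of 4 (0.839 of the range of that group). Of 42 groups of 4 examined, this was the only one, and chance alone flags about 1 group in 20.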

How the results depend on the processing

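The shared gamma, shared alpha and summed beta log2FC stayed positive under every alternative tried for them. DESeq2, limma-voom and some of the other filters were not among these. Leaving out each library in turn gave 1.27 to 1.497 for shared gamma, 0.89 to 1.22 for the 9-member alpha set, 0.74 to 0.99 for the 5-member set and 0.05 to 0.39 for beta, of which 0.05 is without 6m replicate 4, 0.06 without 6m replicate 1 and 0.39 without 6m replicate 2. Library sizes alone gave 1.47, 1.14 and 0.30 for shared gamma, the 9-member alpha set and beta, and moved the median of all genes up by 0.11. Without members that overlap a gene outside their cluster, the family sum gave 0.76, because all gamma genes leave it by construction, and gamma alone had no value.

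Members called higher fell from 37 to 23 under DESeq2, on raw or quantile-normalized counts, and ranged from 23 to 37 when each library was left out. Related genes called higher fell from 8 to 5 under both DESeq2 fits and limma-voom and ranged from 5 to 9 when each library was left out. Related genes called lower fell from 2 to 1 under both DESeq2 fits, library sizes alone and no filter, and ranged from 1 to 3 when each library was left out. The cause was not tested. With the replicate number as a block, the log2FC was 1.05 for the alpha sum, 0.20 for beta, 1.39 for gamma and 1.32 for the family, and 37 members were still called higher. The numbers did not pair the libraries (r between -0.16 and 0.06 for same-numbered ones). Depth limits the beta genes, of which 20 of 22 were too low to test.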
